A study of Mus musculus with 24 samples.

Results

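The comparison described here asked whether the response of epididymal white adipose tissue (eWAT) to a high-fat diet (HFD) depended on *Lama4* in adipocytes. It is the interaction of diet and genotype, which is the log2 fold change of HFD over chow in *Lama4* AKO mice minus the same fold change in *Lama4* fl/fl mice, taken gene by gene. Its members were taken by the diet and genotype in their labels and are 24 of the 24 libraries of the series, 6 in each of 4 groups, with 1 male mouse per library. Mice of both genotypes carried *Lama4* alleles with loxP sites around exon 3. *Lama4* AKO mice also carried adiponectin-Cre, which is active in adipocytes and leaves *Lama4* in the other cells of the fat pad, and *Lama4* fl/fl littermates served as controls. One diet was a breeder chow (5015) and the other held 45% fat, each was given for 20 weeks, and the mice were 24 to 26 weeks old at collection. Whole fat pads were used, and QuantSeq reads the 3′ ends of polyadenylated RNA, so that each count is a tag near the end of a transcript. A negative interaction is called a lower response in *Lama4* AKO below, and a positive one a higher response.

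Laminin alpha 4 is a chain of the laminin trimers in the basement membrane that surrounds each adipocyte and underlies small blood vessels. Adipocytes make fatty acids under the control of SREBF1 and MLXIPL, and sterols under the control of SREBF2, and INSIG1 holds the SREBF precursors in the endoplasmic reticulum when sterols are plentiful. In visceral fat, prolonged HFD feeding is known to lower fatty acid synthesis and to bring in macrophages and mast cells.

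Library totals lay between 5579590 and 18764516 counts, and 15020 of the 16730 genes in the table passed the expression filter and were tested. The first principal component held 45.8% of the variance and spread widely inside 3 of the groups, from -91.8 to 46.8 in chow-fed *Lama4* fl/fl, from -74.8 to 22.1 in chow-fed *Lama4* AKO and from -76.1 to 73.5 in HFD-fed *Lama4* fl/fl mice, but only from 0.85 to 61.5 in HFD-fed *Lama4* AKO mice. The summed level of the 6 adipocyte markers moved with it. In CPM, which are counts scaled to the TMM-adjusted total of each library, this sum was 18000 to 43100 in chow-fed *Lama4* fl/fl, 13900 to 36300 in chow-fed *Lama4* AKO, 8530 to 43300 in HFD-fed *Lama4* fl/fl and 7980 to 22600 in HFD-fed *Lama4* AKO mice. HFD-fed *Lama4* fl/fl mice 4 and 6 were at 43300 and 36400 CPM, above the other 4 mice of their group at 8530 to 22400. The same 2 mice had the lowest sums of the 5 macrophage markers in that group, 1950 and 2550 CPM against 5420 to 11900. Calls and list counts that moved without these mice are given with and without them. In tissue measured in bulk, fewer cells of a type and less RNA per cell cannot be told apart. The mean log2 level of the 6 adipocyte markers is also used below as a covariate. These markers include *Lep* and *Retn*, whose own fitted interactions were negative (-2.38 and -2.88). The covariate can therefore take out part of an interaction by construction. A call or count lost with it is a description and not an independent check.

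*Lama4* (ENSMUSG00000019846, chromosome 10, 38965515 to 39110188 on the forward strand of GRCm38) was examined first. Exon 3 ends 99066 bases before the 3′ end of the gene, so a 3′ tag does not check the deletion. Its level in CPM (lowest, median and highest mouse) was 41.2, 91.7 and 196 in chow-fed *Lama4* fl/fl, 64.2, 113 and 133 in chow-fed *Lama4* AKO, 32.4, 78.7 and 135 in HFD-fed *Lama4* fl/fl and 36.4, 44.3 and 92.5 in HFD-fed *Lama4* AKO mice. All 4 ranges overlapped, and 5 of the 6 HFD-fed *Lama4* AKO mice lay below the lowest chow-fed *Lama4* AKO mouse. The genotype difference on chow was 0.11 ± 0.343 (log2, SE, edgeR adjusted p = 0.98). These counts thus do not show the knockdown that the study reported by quantitative PCR in eWAT of chow-fed mice. The interaction was -0.80 ± 0.487 (log2, SE, n = 6 per group, edgeR adjusted p = 0.401) and was not called. Its direction was not stable, at 0.08 in the 19 mice that the study is inferred to have kept (without mouse 3 of the chow-fed controls, mouse 5 of the chow-fed *Lama4* AKO group and mice 3, 4 and 6 of the HFD-fed controls) and 0.01 with the adipocyte markers as a covariate.

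Across all genes, 58 of 15020 (0.386%) had a response to HFD that differed between the genotypes by the criteria of the study (fold change of at least 1.5, nominal p of at most 0.001 and a group mean of at least 2 CPM). *Lama4* AKO mice had the lower response for 39 of them (0.26%) and the higher response for 19 (0.126%). At an adjusted p of at most 0.05 in edgeR's quasi-likelihood test, 1 gene (0.00666%) remained, *Ubqln4*, and the other 57 are calls at the nominal level with adjusted p of 0.123 to 0.22. This count at the adjusted level was 60 with DESeq2, 4426 with limma-voom and sample quality weights, 2295 with a residual component as covariate and 16 without chow-fed *Lama4* fl/fl 1. The residual component was taken from the deviations of these same libraries from their group means. It lowers the error by construction and leaves group differences in place, so its counts cannot serve as a check of the calls. It was 0 with limma-voom, with the replicate number as a block, in the 19 mice, without HFD-fed *Lama4* fl/fl 4 and 6 and with the adipocyte covariate. At a nominal p of at most 0.05 there were 2336 genes (15.6%), 1312 with a lower (8.74%) and 1024 with a higher response (6.82%). The median interaction over all genes was -0.03, with quartiles of -0.43 and 0.32. The split by direction depended on the tool and the scaling. It was 24 lower and 30 higher of 54 genes with limma-voom, 103 and 45 of 148 with DESeq2, and 45 and 8 of 53 with RLE size factors.

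The 58 genes had a crossed pattern, which the way they were chosen favors. The interaction is also the genotype difference on HFD minus that on chow, so large values tend to come with opposite signs. The counts by sign below are therefore a description and not a separate result about these genes. All 58 had genotype differences of opposite sign on the 2 diets: for the 39 genes, *Lama4* AKO lay above *Lama4* fl/fl on chow and below it on HFD, and for the 19 genes the reverse. Over all genes, 64.3% had genotype differences of opposite sign, with Pearson r of -0.32 across genes between comparisons that share no mice. Of the 39 genes, 37 had a fitted change upward with HFD in *Lama4* fl/fl and downward in *Lama4* AKO mice, and 2 downward in both. Of the 19 genes, 16 had a fitted change downward in *Lama4* fl/fl and upward in *Lama4* AKO, and 3 upward in both. The diet response within *Lama4* AKO reached a nominal p of at most 0.05 for 38 of the 39 and 19 of the 19 genes, and within *Lama4* fl/fl for 19 of the 39 and 5 of the 19. Over all 15020 genes, 5976 reached it in *Lama4* AKO and 1354 in *Lama4* fl/fl mice, so a gap between such counts is not particular to the called genes. By the criteria for a call, HFD against chow alone gave 620 genes in *Lama4* AKO and 26 in *Lama4* fl/fl mice. All mice were kept here, and the difference between these counts was not tested. After removing outlier mice and with limma-voom, the study reported far larger counts in both genotypes, and they lay closer together. The count of 26 therefore cannot show that eWAT of control mice hardly responded to HFD.

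**Figure D1:**
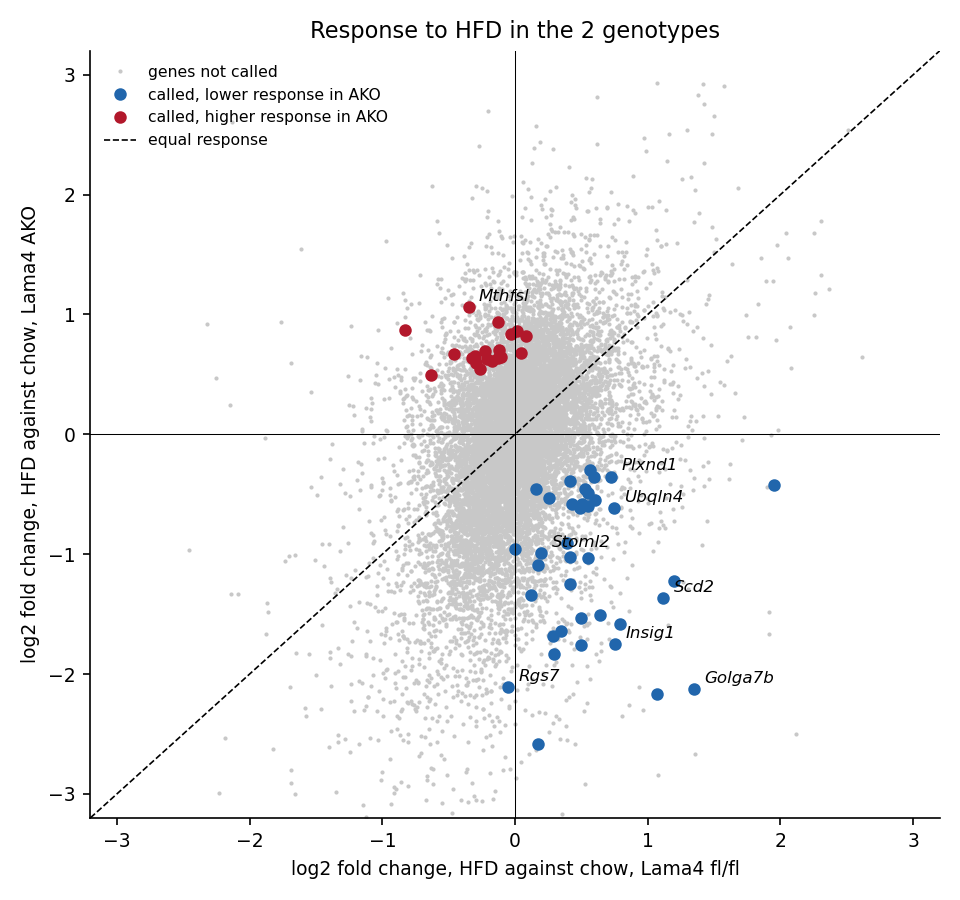
Each point is a gene, placed by its log2 fold change of HFD over chow in *Lama4* fl/fl (horizontal axis) and *Lama4* AKO mice (vertical axis), n = 6 mice per group. The 39 called genes with a lower response in *Lama4* AKO lie below the dashed line of equal response and the 19 with a higher response above it. 64 genes lie outside the axes, 2 of them called (*Rnase2a* and *Gm24074*).

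*Ubqln4*, which encodes a ubiquilin that delivers ubiquitinated proteins to the proteasome, had the lowest p of all genes (ENSMUSG00000008604, chromosome 3, 88553758 to 88569725, forward strand). Its level was 13.6, 16.4 and 20.7 CPM (lowest, median, highest) in chow-fed *Lama4* fl/fl, 21, 25.2 and 35 in chow-fed *Lama4* AKO, 20.4, 30.6 and 32.5 in HFD-fed *Lama4* fl/fl and 14.3, 16.1 and 23.3 in HFD-fed *Lama4* AKO mice. On chow the genotypes did not overlap and *Lama4* AKO was higher, while on HFD *Lama4* AKO was lower with 1 mouse, number 2, inside the range of the controls. HFD raised the fitted level by 0.75 in *Lama4* fl/fl and changed it by -0.62 in *Lama4* AKO mice, an interaction of -1.36 ± 0.226 (log2, SE, edgeR adjusted p = 0.0499). Leaving out each mouse in turn gave -1.51 to -1.26 with adjusted p of 0.00763 to 0.146, at most 0.05 in 7 of 24 fits. The interaction was -1.30 without HFD-fed *Lama4* fl/fl 4 and 6 and -1.23 with the adipocyte markers as a covariate. It met the nominal criteria in both, but its edgeR adjusted p was 0.359 and 0.0986. The 250 bases before its RefSeq start site are printed here with those of *Insig1*, of the sterol list, and *Gbp7*, an interferon response gene, because the 3 genes differ in the motifs that they hold there.

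Ubqln4, GRCm38.p6, chr3:88553466-88553715, forward strand: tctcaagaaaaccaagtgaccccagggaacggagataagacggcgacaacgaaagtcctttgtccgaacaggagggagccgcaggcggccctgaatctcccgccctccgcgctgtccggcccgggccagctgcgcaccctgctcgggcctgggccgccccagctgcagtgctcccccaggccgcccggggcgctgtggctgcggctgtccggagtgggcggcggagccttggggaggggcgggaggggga
Insig1, GRCm38.p6, chr5:28071162-28071411, forward strand: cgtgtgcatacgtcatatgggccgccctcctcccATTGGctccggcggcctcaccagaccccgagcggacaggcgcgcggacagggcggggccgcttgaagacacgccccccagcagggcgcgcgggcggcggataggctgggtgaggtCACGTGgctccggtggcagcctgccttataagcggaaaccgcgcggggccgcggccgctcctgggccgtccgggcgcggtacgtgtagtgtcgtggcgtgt
Gbp7, GRCm38.p6, chr3:142530086-142530335, forward strand: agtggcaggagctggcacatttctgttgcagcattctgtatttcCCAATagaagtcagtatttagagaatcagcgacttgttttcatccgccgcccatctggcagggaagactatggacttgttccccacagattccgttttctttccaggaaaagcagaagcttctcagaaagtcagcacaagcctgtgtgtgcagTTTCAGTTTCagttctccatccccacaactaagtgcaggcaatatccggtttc
Capitals mark matches, on either strand, to the sterol regulatory element TCACNCCAC, the E-box CACGTG, the CCAAT box and the interferon-stimulated response element, searched as 2 copies of GAAA with 2 bases between them. None of the 4 sequences was found in this window of *Ubqln4*. *Insig1* held a CCAAT box that starts 216 bases and an E-box that starts 101 bases before the start site, and *Gbp7* a CCAAT box 206 bases and an interferon-stimulated response element 53 bases before it.

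*Plxnd1*, a receptor for semaphorins that guides vessels and axons and and one of the genes that the study discusses, followed the same pattern (ENSMUSG00000030123, chromosome 6, 115954811 to 115995005, reverse strand). It was at 20.6, 32.9 and 37.0 CPM in chow-fed *Lama4* fl/fl, 37.0, 53.1 and 67.1 in chow-fed *Lama4* AKO, 44.5, 52.2 and 60 in HFD-fed *Lama4* fl/fl and 34.6, 42.2 and 47.8 in HFD-fed *Lama4* AKO mice. The 2 groups of controls did not overlap between diets, and the genotypes touched at 37.0 CPM on chow and overlapped on HFD. The interaction was -1.08 ± 0.206 (edgeR adjusted p = 0.123). *Col15a1*, a basement membrane collagen also discussed by the study, had an interaction of 0.03 ± 0.182 (edgeR adjusted p = 0.936) that lay on either side of 0 in other settings.

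*Mettl1*, the methyltransferase that modifies guanosine in tRNA, was at 13.7, 16.4 and 20.8 CPM in chow-fed *Lama4* fl/fl, 20.8, 25 and 29.7 in chow-fed *Lama4* AKO, 20.9, 24.8 and 30.7 in HFD-fed *Lama4* fl/fl and 17.0, 20.2 and 22.3 in HFD-fed *Lama4* AKO mice. Its interaction was -0.86 ± 0.173, and the highest chow-fed control (20.8 CPM) lay at or below the lowest chow-fed *Lama4* AKO mouse and the lowest HFD-fed control. *Pelp1*, a coregulator of nuclear receptors that also acts in ribosome biogenesis, spanned 18.3 to 24.4, 23.9 to 30.4, 21.7 to 31.4 and 19.1 to 23.6 CPM in the same order of groups, with an interaction of -0.80 ± 0.149. *Zbtb7b*, a zinc finger transcription factor, spanned 25.9 to 44.2, 35.9 to 50.9, 33.7 to 60.1 and 28.3 to 38.5 CPM, with -0.95 ± 0.206. For each of the 3, the median was higher in *Lama4* AKO on chow and lower on HFD. These genes and *Plxnd1* stayed called in the 19 mice, without HFD-fed *Lama4* fl/fl 4 and 6, with the adipocyte markers as a covariate and in each of 24 fits that left out 1 mouse.

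*Stoml2*, a scaffold protein of the mitochondrial inner membrane, differed from them in that the fitted change in controls was small. It was at 17.1, 28.5 and 35.3 CPM in chow-fed *Lama4* fl/fl, 29.6, 33.5 and 40.7 in chow-fed *Lama4* AKO, 17.6, 34.7 and 38.6 in HFD-fed *Lama4* fl/fl and 14.5, 16.5 and 20.2 in HFD-fed *Lama4* AKO mice. The 2 groups of *Lama4* AKO mice did not overlap, with a fitted change of -0.99 against 0.20 in controls and an interaction of -1.19 ± 0.254. *Cyc1*, the cytochrome c1 subunit of respiratory complex III, was at 72.8 to 95.3 CPM in chow-fed and 49.4 to 77.2 CPM in HFD-fed *Lama4* AKO mice, with an interaction of -0.79 ± 0.191. Other named genes with a lower response were *Ppp2r5b*, a regulatory subunit of protein phosphatase 2A (-1.59 ± 0.348), *Rrad*, a small GTPase (-2.03 ± 0.48), *Rgs7*, a regulator of G protein signaling (-2.05 ± 0.488), *Golga7b*, a partner of palmitoyltransferases (-3.48 ± 0.816), and *S100a11*, a calcium-binding protein (-1.09 ± 0.26). *Golga7b* was at 15.1 and 17.8 CPM in HFD-fed *Lama4* fl/fl 4 and 6 and at most 3.48 CPM in the other 4 mice of that group. Without the 2 mice the interactions were -1.23 for *Ppp2r5b*, -1.45 for *Rrad*, -1.46 for *Rgs7*, -2 for *Golga7b*, -0.86 for *S100a11* and -0.65 for *Cyc1*. None of these 6 was then called, nor in the 19 mice or with the adipocyte covariate, while *Stoml2* stayed called without the 2 mice (-1.01) and with the covariate (-0.94) but not in the 19 mice (-0.78).

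**Figure D2:**
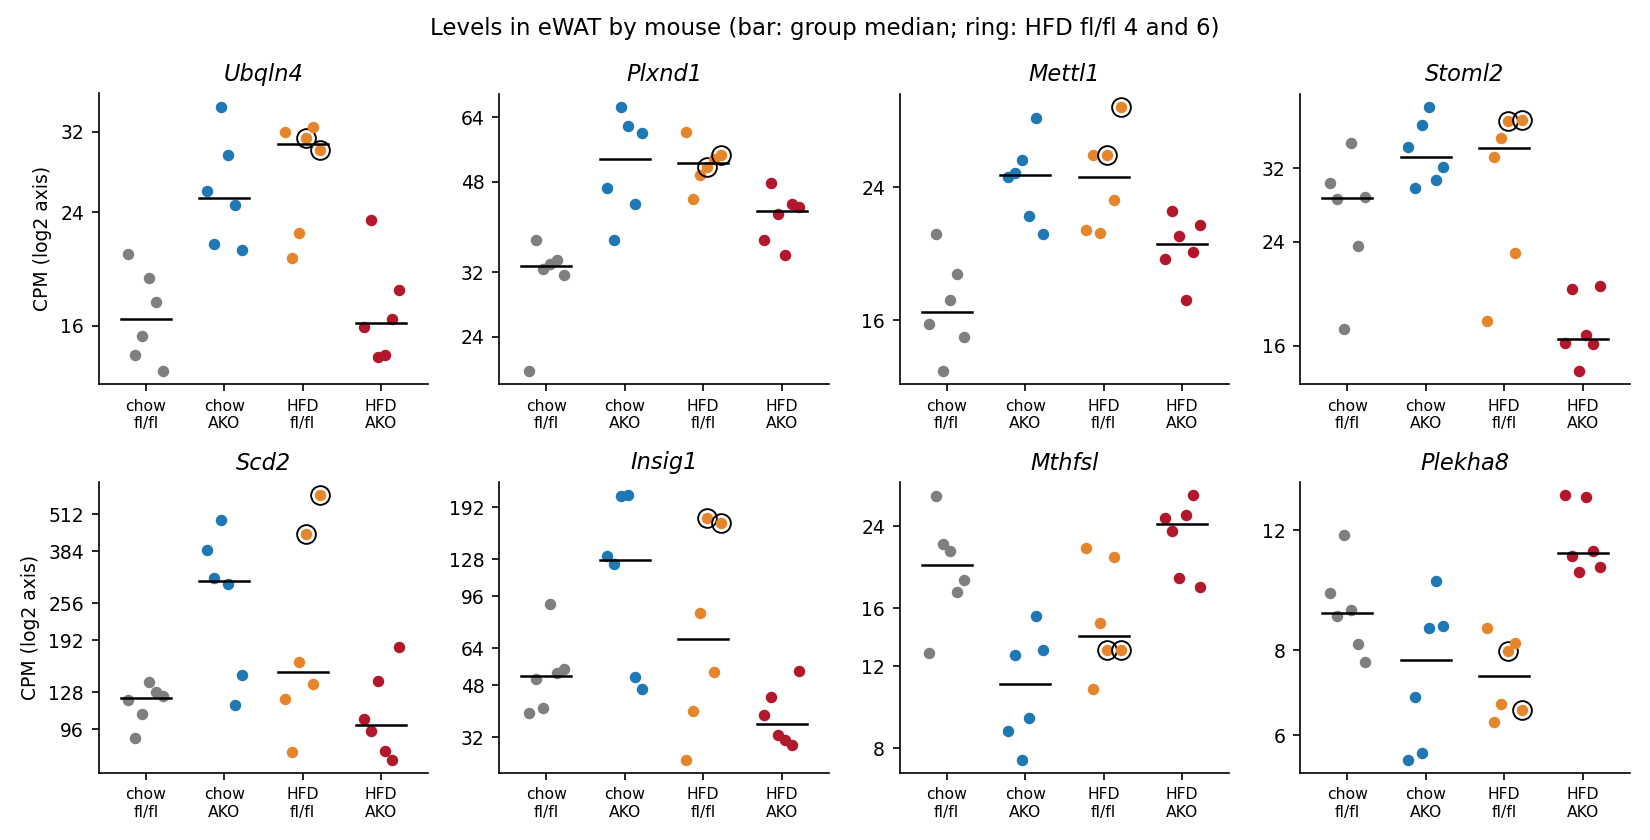
CPM of 8 called genes in each mouse (vertical axis on a log2 scale) by group, with the group median as a bar and HFD-fed *Lama4* fl/fl mice 4 and 6 ringed. For *Ubqln4* and *Plxnd1* the ringed mice lie inside the range of the other 4, for *Scd2*, *Insig1* and *Stoml2* they are the 2 highest of their group, and for *Mthfsl* and *Plekha8* the HFD-fed *Lama4* AKO mice have the highest median.

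Of the lists of de novo lipogenesis and sterol synthesis, *Scd2*, *Insig1* and *Pmvk* were called. *Scd2*, a stearoyl-CoA desaturase, was at 89.6, 122 and 139 CPM in chow-fed *Lama4* fl/fl, 116, 305 and 491 in chow-fed *Lama4* AKO, 80.8, 150 and 594 in HFD-fed *Lama4* fl/fl and 75.9, 99.4 and 182 in HFD-fed *Lama4* AKO mice. The high values were chow-fed *Lama4* AKO mice 1 to 4 (298 to 491 CPM) and HFD-fed *Lama4* fl/fl mice 4 and 6 (440 and 594 CPM), while chow-fed *Lama4* AKO mice 5 and 6 (116 and 147 CPM) lay near the chow-fed controls. *Insig1* was at 38.8, 51.6 and 90.1 CPM in chow-fed *Lama4* fl/fl, 46.7, 127 and 211 in chow-fed *Lama4* AKO, 26.9, 68.9 and 176 in HFD-fed *Lama4* fl/fl and 30.2, 35.3 and 53.7 in HFD-fed *Lama4* AKO mice, and the same 6 mice were its highest. *Aacs*, which activates acetoacetate for lipid synthesis, reached 61.7 CPM in chow-fed *Lama4* AKO and 69.4 CPM in HFD-fed *Lama4* fl/fl mice against at most 14.6 CPM in HFD-fed *Lama4* AKO mice. The interactions were -2.49 ± 0.576 for *Scd2*, -2.50 ± 0.588 for *Insig1* and -2.38 ± 0.547 for *Aacs* (edgeR adjusted p = 0.22 for each). Without HFD-fed *Lama4* fl/fl 4 and 6 they were -1.46, -1.65 and -1.48 and none was called. *Pmvk*, phosphomevalonate kinase of the sterol pathway, had an interaction of -1.29 ± 0.342 that became -0.84 without the 2 mice and was then not called. Outside the rule for named genes and chosen after their values were seen, *Angptl8* (-1.99 ± 0.508), an inhibitor of lipoprotein lipase activity, *Pcyt2* (-1.15 ± 0.281) of phosphatidylethanolamine synthesis, *Mogat2* (-3.24 ± 0.863) of triglyceride synthesis and *Tkt* (-1.04 ± 0.275) of the pentose phosphate pathway were also called. Of these, *Tkt* stayed called without the 2 mice (-1.14), and *Angptl8* (-1.84), *Pcyt2* (-1.10) and *Mogat2* (-1.66) did not. With 1 mouse left out, *Tkt* was called in only 6 of 24 fits, *Mogat2* in 9, *Angptl8* in 13 and *Pcyt2* in 18.

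The list of de novo lipogenesis genes had the lowest median interaction of the lists described here. Of its 15 genes, 13 had a lower response at a nominal p of at most 0.05, none a higher one, and 1 (*Scd2*) was called, beside 8.74% of all genes with a lower response at that level. The median was -1.54 against -0.03 for all genes. *Acss2*, which makes acetyl-CoA from acetate, had -2.33 ± 0.632, *Pnpla3*, a lipid droplet acyltransferase and hydrolase, -2.46 ± 0.758, and *Acly*, which makes acetyl-CoA from citrate, -1.21 ± 0.335. The mean log2 CPM of the list was 6.06, 6.46 and 7.33 in chow-fed *Lama4* fl/fl, 6.28, 7.06 and 7.72 in chow-fed *Lama4* AKO, 5.83, 6.51 and 7.88 in HFD-fed *Lama4* fl/fl and 5.61, 5.78 and 6.67 in HFD-fed *Lama4* AKO mice. The groups overlapped on both diets, and the interaction of the list level was -1.33 ± 0.49. Without HFD-fed *Lama4* fl/fl 4 and 6, 3 of 15 genes remained at that nominal level with a lower response (3.99% of all genes) and the median was -0.83. It was 3 of 15 and -0.73 in the 19 mice (6.62% of all genes), and 5 of 15 and -0.59 with the adipocyte markers as a covariate (5.36%).

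Sterol synthesis genes and SREBF2 targets had a smaller and steadier shift. A lower response at the nominal level was found for 12 of 23, beside 8.74% of all genes. A higher one was found for none, and 2 (*Insig1* and *Pmvk*) were called, with a median of -0.75. *Tm7sf2*, a sterol reductase, had -1.09 ± 0.368 and *Lss*, lanosterol synthase, -0.86 ± 0.296. The mean log2 CPM of the list was 4.15 to 4.83 in chow-fed *Lama4* fl/fl, 4.44 to 5.31 in chow-fed *Lama4* AKO, 4.38 to 5.22 in HFD-fed *Lama4* fl/fl and 4.17 to 4.64 in HFD-fed *Lama4* AKO mice, with medians of 4.76, 5.08, 4.65 and 4.40. Chow-fed *Lama4* AKO mice 1 to 4 lay above all 6 chow-fed controls, and mice 5 and 6 did not. The list level had an interaction of -0.63 ± 0.235. Of the 23 genes, 7 remained without HFD-fed *Lama4* fl/fl 4 and 6, 6 in the 19 mice and 6 with the adipocyte covariate, with medians of -0.53, -0.52 and -0.45. All genes gave 3.99%, 6.62% and 5.36% in these settings. Promoters of 16 of these 23 genes were found in the RefSeq table, and 84.2% of their 19 start sites held a CCAAT box in the 250 bases before them, against 33.8% of all 32851 start sites. For the E-box the shares were 21.1% and 6.02%, and for TCACNCCAC 5.26% and 1.05%.

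Adipocyte identity and secretion genes moved less uniformly. Of 19 genes, 6 had a lower response at the nominal level, beside 8.74% of all genes, and none was called, with a median of -0.96. *Lep*, leptin, was at 1220, 3070 and 5530 CPM in chow-fed and 381, 486 and 1550 CPM in HFD-fed *Lama4* AKO mice, beside 574, 1410 and 1720 in chow-fed and 267, 1200 and 3300 in HFD-fed controls. The interactions were -2.38 ± 0.705 for *Lep*, -2.88 ± 0.967 for *Retn*, the adipokine resistin, -0.85 ± 0.266 for *Cebpa*, a transcription factor of adipocyte differentiation, and -1.39 ± 0.559 for *Slc2a4*, the insulin-responsive glucose transporter. The median of the list was 0 in the 19 mice, -0.18 without HFD-fed *Lama4* fl/fl 4 and 6, and 0.31 with the 6 adipocyte markers, all of which it holds, as a covariate. The count of 6 became 14 without chow-fed *Lama4* fl/fl 1 and 3 without chow-fed *Lama4* AKO 1 or HFD-fed *Lama4* fl/fl 4. It was 1 of 19 in the 19 mice, 2 of 19 without HFD-fed *Lama4* fl/fl 4 and 6, and 2 of 19 with the covariate. All genes gave 6.62%, 3.99% and 5.36% in these settings. Of 20 insulin signaling genes, 4 had a lower and 2 a higher response at the nominal level, beside 8.74% and 6.82% of all genes, with a median of -0.36. Among them were *Pik3r1*, a regulatory subunit of phosphoinositide kinase (-1.27 ± 0.484), and *Tbc1d1*, a Rab GTPase-activating protein (0.81 ± 0.298). The lower count was 9 with chow-fed *Lama4* fl/fl 1 left out and 2 with HFD-fed *Lama4* fl/fl 4 left out. There was 1 lower and 1 higher gene in the 19 mice, without HFD-fed *Lama4* fl/fl 4 and 6 and with the adipocyte covariate, and the median was -0.05, -0.15 and -0.04.

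**Figure D3:**
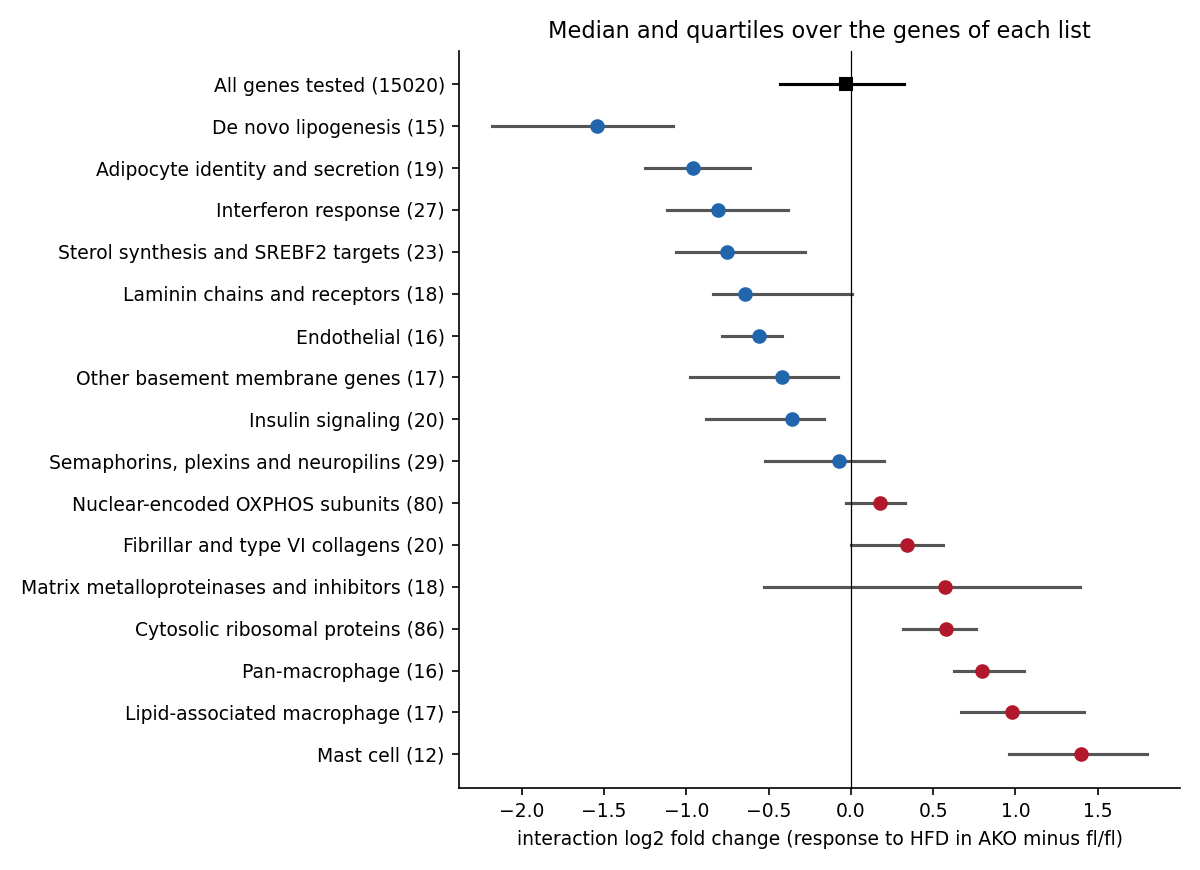
Median (point) and quartiles (line) of the interaction log2 fold change over the tested genes of each list, with the number of genes in parentheses and all 15020 genes at the top. De novo lipogenesis has the lowest median (-1.54) and mast cell genes the highest (1.40).

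Genes with a higher response in *Lama4* AKO were called with smaller changes, with a median size of 0.87 (log2) against 1.46 for the 39 genes. *Mthfsl*, a copy of the folate enzyme gene *Mthfs* with which it may share reads, was at 12.8, 19.8 and 27.9 CPM in chow-fed *Lama4* fl/fl, 7.56, 11 and 15.4 in chow-fed *Lama4* AKO, 10.7, 13.9 and 21.6 in HFD-fed *Lama4* fl/fl and 17.8, 24.3 and 28 in HFD-fed *Lama4* AKO mice. The 2 diets did not overlap within *Lama4* AKO, and the interaction was 1.41 ± 0.291. *Plekha8*, which transfers glycosphingolipids from the Golgi, was at 7.69 to 11.8, 5.53 to 10.1, 6.27 to 8.62 and 10.4 to 13.5 CPM in the 4 groups, and HFD-fed *Lama4* AKO mice lay above both the HFD-fed controls and the chow-fed *Lama4* AKO mice with no overlap. Its interaction was 0.96 ± 0.219. *Zfp715*, a zinc finger protein, was at 12 to 13 CPM in chow-fed and 14.2 to 22.5 CPM in HFD-fed *Lama4* AKO mice, with 0.88 ± 0.193.

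*Lamtor3* and *Flcn* act on the activation of mTORC1 at the lysosome, *Lamtor3* as part of the Ragulator complex and *Flcn* as a GTPase-activating protein for Rag GTPases. *Lamtor3* was at 33, 48.4 and 59 CPM in chow-fed *Lama4* fl/fl, 32.9, 35 and 47.1 in chow-fed *Lama4* AKO, 30.6, 39.4 and 46.2 in HFD-fed *Lama4* fl/fl and 42.2, 59.1 and 76.4 in HFD-fed *Lama4* AKO mice, with an interaction of 0.96 ± 0.23. *Flcn* was at 33.2 to 48.2 CPM in HFD-fed and 18.7 to 32.3 CPM in chow-fed *Lama4* AKO mice, with 0.87 ± 0.228. *Smpdl3a*, a secreted phosphodiesterase (1.06 ± 0.28), *Tm7sf3* (0.77 ± 0.184), the phospholipid scramblase *Plscr4* (0.63 ± 0.153), the dynactin subunit *Dctn6* (0.92 ± 0.228), *Armcx2* (0.74 ± 0.192), the mitochondrial thymidine kinase *Tk2* (0.75 ± 0.198), the calcium-binding *Pdcd6* (0.83 ± 0.22), *Ldlrad4*, an inhibitor of TGF-beta signaling (0.81 ± 0.215), and *Tmem62* (0.85 ± 0.226) followed. *Snhg3*, a host of small nucleolar RNAs, had 1.13 ± 0.288, but the last 1000 bases of its gene overlap *Rcc1* on the same strand, so its reads are uncertain. The same holds on the opposite strand for *Ppp2r5b* with *Gpha2* and for *Ldlrad4* with *Fam210a*, since the strand setting of the counting is not given in the sources used here. In the 19 mice, without HFD-fed *Lama4* fl/fl 4 and 6 and with the adipocyte covariate together, *Mthfsl* was the only 1 of the 19 genes called in all 3 settings. Of the others named here, *Zfp715*, *Plekha8* and *Lamtor3* stayed called without the 2 mice. With 1 mouse left out, *Plscr4*, *Dctn6*, *Tm7sf3* and *Lamtor3* were called in 14 to 22 of 24 fits. *Tmem62*, *Tk2*, *Ldlrad4*, *Pdcd6*, *Flcn*, *Smpdl3a*, *Armcx2* and *Snhg3* were called in only 4 to 8 of them.

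Cytosolic ribosomal protein genes had a higher response as a group. At the nominal level, 38 of 86 had a higher response (44.2% where all genes gave 6.82%), 1 (*Rpl6*, -0.57) a lower one, and 1 (*Rpl30*) was called. The median was 0.58 and 79 of the 86 values lay above 0. *Rpl30* was at 149, 340 and 451 CPM in chow-fed *Lama4* fl/fl, 136, 213 and 275 in chow-fed *Lama4* AKO, 199, 247 and 268 in HFD-fed *Lama4* fl/fl and 243, 319 and 438 in HFD-fed *Lama4* AKO mice, with an interaction of 1.13 ± 0.3. Values for *Rps27a* (1.51 ± 0.431), *Rps29* (1.12 ± 0.329) and *Rps28* (0.93 ± 0.274) lay in the same direction, and reads of this family may be split with its many pseudogene copies. The mean log2 CPM of the list was 7.54, 8.36 and 8.61 in chow-fed *Lama4* fl/fl, 7.48, 7.90 and 8.23 in chow-fed *Lama4* AKO, 7.83, 8.05 and 8.48 in HFD-fed *Lama4* fl/fl and 8.04, 8.25 and 8.42 in HFD-fed *Lama4* AKO mice. Chow-fed *Lama4* fl/fl 1, at 7.54, stood below the other 5 chow-fed controls at 8.33 to 8.61, which all lay above every chow-fed *Lama4* AKO mouse. The interaction of the list level was 0.58 ± 0.23. The higher count was 25 of 86 without HFD-fed *Lama4* fl/fl 4 and 6, 18 of 86 in the 19 mice and 14 of 86 with the adipocyte covariate. These are 29.1%, 20.9% and 16.3%, where all genes gave 3.84%, 5.62% and 4.35%, and the medians were 0.53, 0.47 and 0.36. Leaving out 1 mouse gave 29 to 55, and *Rpl30* was called in 4 of 24 such fits.

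Nuclear-encoded subunits of oxidative phosphorylation were mixed. At the nominal level, 9 of 80 had a higher and 3 a lower response, with a median of 0.18, beside 6.82% and 8.74% of all genes, and 1 (*Cyc1*) was called. The higher count ranged from 3, without HFD-fed *Lama4* AKO 1 or 4, to 19, without chow-fed *Lama4* AKO 2. It was 13 (16.2%) without HFD-fed *Lama4* fl/fl 4 and 6 and 19 (23.8%) with the adipocyte covariate, beside 3.84% and 4.35% of all genes. In both settings 2 of 80 were lower and *Cyc1* was not called. In the 19 mice 6 were higher and 5 lower. *Cox7c* (0.87 ± 0.289) and *Cox7b* (1.02 ± 0.372) of complex IV were among the higher, and *Cyc1* (-0.79 ± 0.191) and *Atp5d* (-0.51 ± 0.173) of complex III and the ATP synthase among the lower ones.

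Of 27 interferon response genes, 11 had a lower response in *Lama4* AKO at the nominal level, beside 8.74% of all genes. None had a higher one and none was called, with a median of -0.81, and the counts rest in part on 1 mouse. *Gbp7*, an interferon-induced GTPase, was at 31.6, 70.4 and 75.7 CPM in chow-fed *Lama4* fl/fl, 48.3, 66.6 and 255 in chow-fed *Lama4* AKO, 42.4, 60.1 and 76.1 in HFD-fed *Lama4* fl/fl and 21.0, 24.8 and 61.7 in HFD-fed *Lama4* AKO mice, with an interaction of -1.54 ± 0.496. *Xaf1*, an interferon-induced regulator of apoptosis, had -1.59 ± 0.556, and *Ifit3b*, of the interferon-induced IFIT family, had a value of -1 ± 0.381. *Tgtp2*, a T cell-specific GTPase with a near copy in *Tgtp1*, was under 2 CPM in every mouse and is given as a value only (-3.58 ± 1.09). The list level was 3.29, 3.68 and 4.21 in chow-fed *Lama4* fl/fl, 3.34, 3.58 and 4.99 in chow-fed *Lama4* AKO, 3.42, 3.68 and 4.49 in HFD-fed *Lama4* fl/fl and 2.89, 3.50 and 3.69 in HFD-fed *Lama4* AKO mice, so the groups overlapped, with an interaction of -0.59 ± 0.362. Chow-fed *Lama4* AKO 6, at 4.99, also had the highest sum of 4 T cell markers in its group, 81.1 CPM against at most 15.6 in the other 5 mice. The 2 highest HFD-fed controls, mice 1 and 5 (4.41 and 4.49), had the highest T cell sums of their group, 94.3 and 56.9 CPM. The part of these cells in the result was not tested. Without this mouse, 4 of 26 genes remained (15.4%, where all genes gave 10.8%) and the median was -0.49. Leaving out HFD-fed *Lama4* fl/fl 1 or 5 gave 5, and leaving out chow-fed *Lama4* fl/fl 1 gave 7. It was 12 of 27 without HFD-fed *Lama4* fl/fl 4 and 6, 18 of 27 in the 19 mice and 13 of 27 with the adipocyte covariate. All genes gave 3.99%, 6.62% and 5.36% in these settings. Of 26 start sites of 22 genes of this list in RefSeq, 53.8% held the interferon-stimulated response element in the 250 bases before them, against 2.98% of all start sites, as in the sequence of *Gbp7*.

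**Figure D4:**
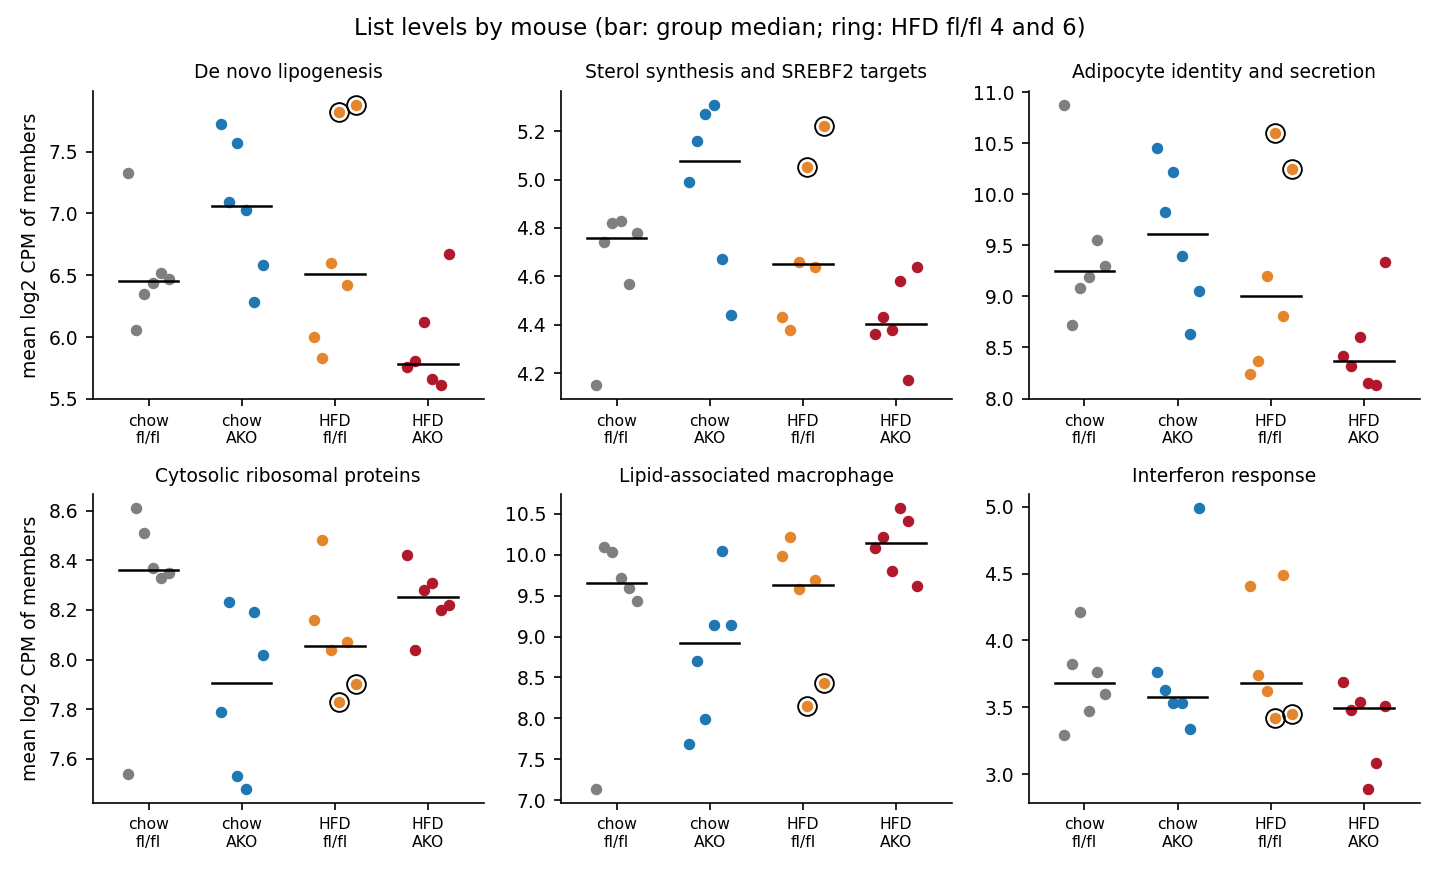
Mean log2 CPM over the genes of 6 lists in each mouse (vertical axes), by group, with the group median as a bar and HFD-fed *Lama4* fl/fl mice 4 and 6 ringed. The ringed mice are the 2 highest of their group for de novo lipogenesis (7.82 and 7.88), the sterol list and adipocyte genes, and the 2 lowest for ribosomal protein and lipid-associated macrophage genes.

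Macrophage and mast cell genes had positive medians with few members past the nominal level, where 6.82% of all genes had a higher response. All 16 pan-macrophage genes had interactions above 0, with a median of 0.80, but 2 of 16 reached the nominal level with a higher response, *Cd14*, a coreceptor for endotoxin (1.07 ± 0.433), and *Tyrobp*, a signaling adapter (1.56 ± 0.732). All 17 lipid-associated macrophage genes lay above 0 as well, with a median of 0.98 and 4 of 17 at the nominal level. These were *Spp1*, osteopontin (2.70 ± 0.964), the cathepsins *Ctsl* (0.93 ± 0.379) and *Ctsk* (1.68 ± 0.798), and *Atp6v0d2*, a subunit of the vacuolar proton pump (1.82 ± 0.878). The level of this list was 7.14, 9.65 and 10.09 in chow-fed *Lama4* fl/fl, 7.69, 8.92 and 10.05 in chow-fed *Lama4* AKO, 8.15, 9.63 and 10.22 in HFD-fed *Lama4* fl/fl and 9.62, 10.14 and 10.57 in HFD-fed *Lama4* AKO mice. The 5 mice under 8.5 were mouse 1 of the chow-fed controls (7.14), mice 1 and 3 of chow-fed *Lama4* AKO (7.69 and 7.99) and HFD-fed *Lama4* fl/fl 4 and 6 (8.15 and 8.43), whose adipocyte marker sums were 43100, 36300, 33200, 43300 and 36400 CPM. The count was 12 without chow-fed *Lama4* fl/fl 1, 11 without chow-fed *Lama4* AKO 5, 9 without HFD-fed *Lama4* fl/fl 2, and 1 or 2 in 17 of the other fits that left out 1 mouse. It was 1 of 17 with a median of 0.68 without HFD-fed *Lama4* fl/fl 4 and 6, and 1 of 17 with a median of 0.32 under the adipocyte covariate. In the 19 mice it was 3 of 17 with a median of 0.95. All genes gave 3.84%, 4.35% and 5.62% in these settings. The part of the adipocyte share in these values was not tested further. For the pan-macrophage list, no gene reached the nominal level without the 2 mice or with the covariate, with medians of 0.40 and 0. With 1 mouse left out its count ranged from 1 to 5 and left the 1.5-fold range in 20 of 24 fits, with 5 without chow-fed *Lama4* fl/fl 1, mouse 6 of chow-fed *Lama4* AKO or mouse 2 of the HFD-fed controls.

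Mast cell genes had the highest median of the lists described, 1.40. At the nominal level 1 of 12 genes had a higher response, a share near the 6.82% of all genes. This gene was *Slc6a4*, the serotonin transporter (1.33 ± 0.622). It was at 1.32, 1.60 and 1.93 CPM in chow-fed *Lama4* fl/fl, 0.46, 1.27 and 2.70 in chow-fed *Lama4* AKO, 1.04, 3.57 and 8.50 in HFD-fed *Lama4* fl/fl and 3.67, 9.05 and 13.1 in HFD-fed *Lama4* AKO mice. HFD raised it without overlap within *Lama4* AKO (log2 change 2.76, edgeR adjusted p = 0.0121), while HFD-fed controls 4 and 6 stayed at 1.34 and 1.04 CPM. The genes *Mrgprb1* (2.13 ± 1.05), *Fcer1a* (2.29 ± 1.17) and *Gata2* (0.71 ± 0.344), a receptor, the IgE receptor chain and a transcription factor of mast cells, had wide errors. With 1 mouse left out the count ranged from 0 to 5 of 12, with 5 without chow-fed *Lama4* AKO 5 or HFD-fed *Lama4* fl/fl 1 and 0 without HFD-fed *Lama4* fl/fl 4 or 6, among others. The adipocyte covariate gave 4 of 12 and a median of 0.63. Without HFD-fed *Lama4* fl/fl 4 and 6 together these were 0 of 12 and 0.91, and in the 19 mice 1 of 12 and 0.90. All genes gave 4.35%, 3.84% and 5.62% in these settings.

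Among matrix genes, laminin chains and receptors had a median of -0.64, with 6 of 18 lower and 1 higher at the nominal level, beside 8.74% and 6.82% of all genes. Receptors led the lower ones, *Itga7*, an integrin alpha chain (-1.30 ± 0.441), *Mcam*, which binds laminin alpha 4 on vessels (-1.98 ± 0.687), and *Bcam*, which binds laminin alpha 5 (-0.99 ± 0.394). *Lama2*, the laminin alpha 2 chain, was the 1 with a higher response, at 22.6 to 45.9 CPM in chow-fed and 43.0 to 55.3 CPM in HFD-fed *Lama4* AKO mice (0.63 ± 0.234). Other basement membrane genes had a median of -0.42, with 4 of 17 lower, *Nid2* (-1.09 ± 0.38) and *Nid1* (-1.09 ± 0.504), the nidogens that link laminin to collagen IV, *Npnt*, nephronectin (-1.42 ± 0.613), and *Col4a1*, a collagen IV chain (-0.40 ± 0.195). Both medians were nearer to 0 in the 19 mice, at -0.07 and -0.09. For laminins, 2 genes were lower and 3 higher in the 19 mice, 2 lower and 0 higher without HFD-fed *Lama4* fl/fl 4 and 6, and 0 lower and 2 higher with the adipocyte covariate. For the other basement membrane genes, 0 of 17 remained in each of these 3 settings. The second count ranged from 1, without HFD-fed *Lama4* fl/fl 4, to 7, without HFD-fed *Lama4* fl/fl 2.

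Fibrillar and type VI collagens had a median of 0.34, with 3 of 20 higher and 1 lower at the nominal level, beside 6.82% and 8.74% of all genes. The higher ones were *Postn*, *Lum* and *Col6a3* (1.12 ± 0.436, 1.21 ± 0.52 and 0.73 ± 0.318), and *Col6a1* was lower (-0.78 ± 0.255). Matrix metalloproteinases and their inhibitors had a median of 0.57 with 6 of 18 higher and 3 lower. *Mmp11* (1.47 ± 0.445) and *Mmp23* (0.65 ± 0.216) were higher, and the membrane-bound *Mmp15* (-1.38 ± 0.368) and the aggrecanase *Adamts5* (-1.52 ± 0.453) lower. None of these was called. The 3 collagens became 1 without chow-fed *Lama4* fl/fl 3 and 5 without chow-fed *Lama4* fl/fl 1. Without HFD-fed *Lama4* fl/fl 4 and 6, 1 collagen and 3 metalloproteinase genes were higher, with the adipocyte covariate 0 and 3, and in the 19 mice 2 and 5. For the metalloproteinase list these are 16.7%, 16.7% and 27.8%, where all genes gave 3.84%, 4.35% and 5.62%. Its medians were 0.37, 0.22 and 0.45, and 2, 1 and 1 of its genes were lower. The collagen medians were 0.17, 0.08 and 0.23.

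Endothelial genes had a median of -0.56, with 5 of 16 lower at the nominal level, beside 8.74% of all genes. Among the 5 were *Cldn5*, a tight junction protein (-1.54 ± 0.491), *Cdh5*, vascular cadherin (-0.92 ± 0.421), *Eng* (-0.66 ± 0.279) and *Robo4* (-0.77 ± 0.337). The list level was 4.89 to 5.87, 5.04 to 5.96, 4.74 to 5.85 and 4.57 to 5.50 in the 4 groups, and the median was -0.03 with the adipocyte covariate. The count was 9 without chow-fed *Lama4* AKO 5 or HFD-fed *Lama4* AKO 6 and fell to 2 without any 1 of 7 other mice, without HFD-fed *Lama4* fl/fl 4 and 6 together and with the covariate. Of 29 semaphorins, plexins and neuropilins, 5 had a lower response, *Plxnd1* was called, and the median was -0.07, near that of all genes. *Sema3c* (-1.55 ± 0.488), *Sema3f* (-1.18 ± 0.406) and *Sema7a* (-0.92 ± 0.318), semaphorins of which the first 2 are secreted, were among the 5.

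*Rnase2a*, a ribonuclease of eosinophils with several near copies, shows how few mice can decide a call. Its counts were 606 and 416 in chow-fed *Lama4* AKO 1 and 3 and 538 and 568 in HFD-fed *Lama4* fl/fl 4 and 6, and at most 23 in every other mouse, with counts of 0 in chow-fed *Lama4* fl/fl and in both groups of *Lama4* AKO mice. The fitted interaction of -10.61 ± 2.4 depends on the handling of counts of 0 and is no bound, and it was -5.07 and not called without the 2 HFD-fed controls. Of the 58 genes, 16 stayed called without HFD-fed *Lama4* fl/fl 4 and 6, 17 in the 19 mice, 15 with the adipocyte covariate, and 10 in all 3. The 10 were *Ubqln4*, *Pelp1*, *Plxnd1*, *Mettl1*, *Mthfsl*, *Zbtb7b*, *Tkt*, *Gm43581*, *4833403J16Rik* and *Gm15987*. With 1 mouse left out, *Tkt* was called in only 6 and *Gm15987* in 14 of 24 fits, and the others in all 24. These 2 HFD-fed controls were the 2 highest of their group in 20 of the 39 genes with a lower response, beside 21.9% of all genes, and the 2 lowest in 7 of the 19, beside 23.1%. All 58 kept their direction in each setting, and 22 stayed called in each of the 24 fits that left out 1 mouse.

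**Figure D5:**
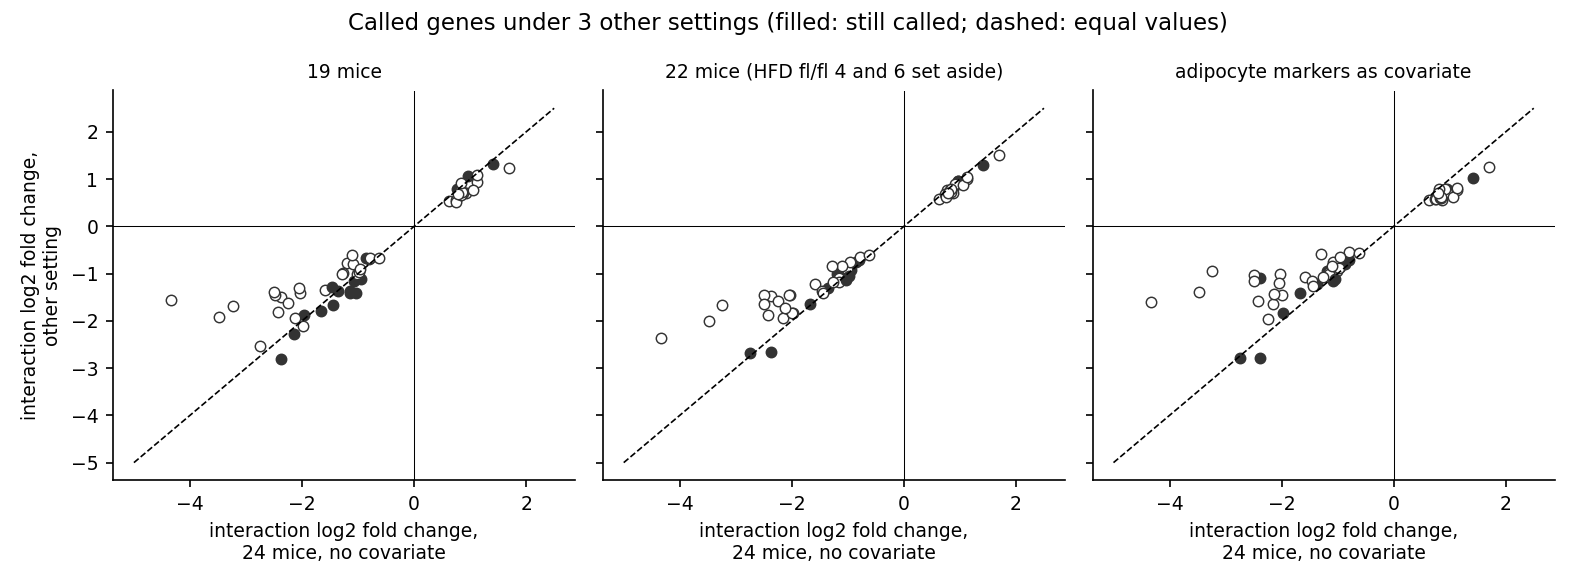
Interaction log2 fold change of 57 of the 58 called genes (*Rnase2a* is off the scale) with 24 mice (horizontal axis) against its value in the 19 mice, without HFD-fed *Lama4* fl/fl 4 and 6, and with the adipocyte markers as a covariate (vertical axis of each panel). Filled points stayed called and all points keep their sign. The 3 values below -3 (*Gm24074*, *Golga7b* and *Mogat2*) lie nearer to 0 in each panel, while *Gm15987* (-2.38) lies farther from it in each.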

How the data were processed

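Epididymal fat pads of 24 male mice, 6 per group, were measured by QuantSeq 3′ sequencing. The authors ran the Lexogen QuantSeq pipeline on the Bluebee platform and deposited whole-number counts for each gene in each library, not normalized, on GRCm38 per the labels. The aligner is not given in the sources used here. A second deposited table of normalized values was not used. Gene symbols were found for 16683 of 16730 genes. Counts were analysed with edgeR 4.0.16 in R 4.3.3: a gene was tested if 3 or more mice reached 1 CPM, TMM factors applied, and 1 coefficient per group fitted to all libraries. Calls needed a 1.5-fold change or more, a nominal p of at most 0.001 and a group mean of at least 2 CPM, and p-values were adjusted over all 15020 genes by the method of Benjamini and Hochberg. The samples of a group are separate mice. The lists and members were chosen with earlier results of these data known, and lists are described by counts and medians without a test. Named genes were the 15 with the lowest p per direction (predicted genes and clone names were only counted), genes with adjusted p of at most 0.05, *Lama4*, *Plxnd1*, *Col15a1*, and up to 4 members per list by lowest p. Names outside this rule are the single list members that a count refers to and the genes said to be so. The study left out mice that the labels do not name, so all 24 were kept. The alternatives were DESeq2 1.42.0, limma-voom (limma 3.58.1) with and without sample quality weights, RLE factors, 2 other filters, the replicate number as a block, other thresholds, the 19 mice that the study is inferred to have kept, a residual component as covariate, and each mouse left out. Chosen after seeing the data were the fits without HFD-fed *Lama4* fl/fl 4 and 6 and with the mean of 6 adipocyte markers as covariate, and the counts of list members under them. A count of 0 allows up to 3 counts of a library's total, for counting error only. Methods were tested on simulated data first. The 60 pairs of libraries within groups differed by more than sampling noise (chi-square per degree of freedom of at least 6.1). Positions are from release M21 of GENCODE and promoters from RefSeq. Ages, the targeted exon and Cre are from the study's methods.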

Additional observations from a re-analysis of the deposited data

Results flagged for a closer look

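In 100 groups of 6 mice, values of the genes and lists printed above were examined for a mouse far from the rest by Dixon's test, which chance passes in about 1 of 20 groups, and 10 were found. Gene levels here are log2(CPM + 0.25) and list levels the mean log2 CPM. Chow-fed *Lama4* fl/fl 1 accounts for 6 of the 10. It was the lowest of its group for *Plxnd1* (4.38, next 4.99), *Rpl30* (7.22, next 8.27), cytosolic ribosomal protein genes (7.54, next 8.33) and lipid-associated macrophage genes (7.14, next 9.44), and the highest for *Aacs* (5.16, next 4.26) and de novo lipogenesis genes (7.33, next 6.52). Without this mouse the interaction called 188 genes in place of 58, 89 of them with a higher response and 99 with a lower one. HFD-fed *Lama4* AKO 6 was the highest of its group for *Lama4* (6.54, next 5.61) and the lowest on the first principal component (0.85, next 47.2). Chow-fed *Lama4* AKO 6 was the highest of its group for interferon response genes (4.99, next 3.76), and chow-fed *Lama4* AKO 5 for *Zfp715* (3.73, next 3.66), a gap that is large only beside the narrow range of that group. The response of *Ubqln4* to HFD differed between the genotypes by a test of the difference itself with all 24 mice, with an interaction of -1.36 on the log2 scale. The edgeR adjusted p of 0.0499 was just under the threshold. With 1 mouse left out it reached up to 0.146 and was at most 0.05 in 7 of 24 fits.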

How the results depend on the processing

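The interaction called 58 genes. The count was 148 with DESeq2, 1358 with limma-voom and sample quality weights, 1057 with a residual component as covariate and 101 in the 19 mice, and 32 with the replicate block, 31 with the adipocyte markers as covariate, 19 without HFD-fed *Lama4* fl/fl 4 and 6, 37 at a fold change of at least 2 and 1 at an adjusted p of at most 0.05. Leaving out 1 mouse gave 29 (chow-fed *Lama4* AKO 3) to 188 (chow-fed *Lama4* fl/fl 1). Counts also passed 1.5 times the full one without chow-fed *Lama4* AKO 5 (138), mouse 2 of the HFD-fed controls (117) or HFD-fed *Lama4* AKO 6 (94), and fell to 30 to 38 without chow-fed *Lama4* fl/fl 2, 3 or 4, mouse 1 of chow-fed *Lama4* AKO, mice 4 or 6 of the HFD-fed controls, or mice 1, 4 or 5 of HFD-fed *Lama4* AKO. RLE factors, the other filters, limma-voom and no fold criterion gave 53 to 59. RLE factors moved the median of all genes to -0.063 and the share of higher calls to 15.1%, limma-voom to 55.6%, and no filter to 15.8%. All 58 genes kept their direction. *Lama4* changed from -0.80 to 0.08 in the 19 mice and to 0.01 with the adipocyte markers. It was called at -0.82 with the residual component, which lowers the error by construction. *Col15a1* (0.03) was at 0 with DESeq2 and RLE factors, at -0.02 with quality weights, and between -0.06 and 0.11 with 1 mouse left out. Same-numbered mice did not deviate together (36 pairs, correlations of -0.534 to 0.714, median 0.00112, 5 of 24 libraries closest to their own number), so the numbers do not pair the mice, and the block kept 30 of the 58 calls. The cause of these shifts was not tested. Counts of 5579590 to 18764516 per library limit genes near 1 CPM most.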

Other observations

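Of the 40 lists with tested genes, 24 are not described above, and their median interactions lay between -0.90 and 0.49. Mesothelial genes were lowest (-0.90, 2 of 12 with a lower response at a nominal p of at most 0.05, beside 8.74% of all genes), and this median was -0.25 with the adipocyte markers as a covariate. Proliferation genes were highest (0.49), with 0 of 22 at the nominal level in either direction, and -0.05 with the covariate. T cell genes had a median of -0.55 with 1 of 22 lower. In the 19 mice 5 of 22 were lower with a median of -1.61. Without HFD-fed *Lama4* fl/fl 4 and 6 these were 0 of 22 and -1.02, and with the adipocyte covariate 4 of 22 and -1.16. All genes gave 6.62%, 3.99% and 5.36% in these settings. The direction turned with limma-voom (0.47), and the median ranged from -0.89 to 0.85 with 1 mouse left out. Fatty acid beta-oxidation and branched-chain amino acid breakdown had medians of -0.32 and -0.37, with 1 of 20 and 1 of 21 genes lower at the nominal level and 1 of the 21 higher, and were at 0.01 and -0.02 in the 19 mice. Mitochondrial ribosomal proteins (-0.01), proteasome subunits (0.08), translation factors (-0.06) and spliceosome genes (0.03) stayed near the median of all genes, beside the 0.58 of cytosolic ribosomal proteins. None of the 25 epididymis and testis genes listed passed the expression filter. The summed level of 3 epididymis markers found in the table was 19 CPM in chow-fed *Lama4* fl/fl 4 and 31.5 CPM in chow-fed *Lama4* AKO 5, and at most 1.02 CPM in the other 22 mice.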
